A study of Mus musculus with 6 samples.

Results

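The 6 mouse uroplakin genes present in the count tables, Upk1a, Upk1b, Upk2, Upk3a, Upk3b and Upk3bl, were followed through the uteri of 12-month-old CD-1 mice. They were taken by name, 6 of the 24077 genes in the single-cell table, and they were chosen by their measured levels, since earlier results had shown how these differ between epithelial and mesothelial cells, between the control and treated libraries and between sections. Those levels are therefore given as a description, without a test. Control mice (CO) received corn oil and treated mice (DES) received 1 mg/kg/day of diethylstilbestrol, a synthetic estrogen, by injection from day 1 to day 5 after birth, and only the uterine horns were used for cells. CO mice were taken in estrus, since the treated mice stay in it. One single-cell library pooled 2 CO mice and another pooled 4 DES mice, so neither condition had a replicate. In addition, 2 CO and 2 DES uteri, 1 mouse each, were cut as single sections for spatial transcriptomics, in which each spot captures RNA from several cells. The sections are called CO A, CO B, DES A and DES B, and by the study's account CO B carried a fold in the tissue and the DES uteri held adenocarcinoma.

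Uroplakins are membrane proteins of the urothelium, the lining of the bladder, where they pack into rigid plaques on the surface of the umbrella cells and help make that surface impermeable. Upk1a and Upk1b are tetraspanins, proteins that cross the membrane repeatedly. Upk2 pairs with Upk1a, and Upk3a or Upk3b pairs with Upk1b. Upk3b is also widely used as a marker of mesothelium, the cell layer that covers the outside of the uterus and other organs of the body cavity.

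The genes lie on 5 chromosomes in GRCm38, and all are protein coding. Upk3b (chr5:136038496-136046487) and Upk3bl, the uroplakin 3B-like gene (chr5:136054492-136064326), are neighbours on the plus strand with 8004 bases between them. Upk1a lies at chr7:30603092-30612847 and Upk2 at chr9:44452715-44454976, both on the minus strand. Upk3a lies at chr15:85017141-85022547 on the plus strand and Upk1b at chr16:38773184-38800328 on the minus strand.

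Sequences before the RefSeq start sites of Upk3b, Upk3bl and Upk1a are shown because these 3 genes carry most of the results below, and because the neighbours Upk3b and Upk3bl had opposite cell type patterns. They are from RefSeq on GRCm38, written 5′ to 3′ on the strand of the gene, with capitals marking the letters that a motif search matched. Upk3b is chr5:136038246-136038495 on the plus strand, Upk3bl is chr5:136057017-136057190 on the plus strand followed by 30 bases from chr5:136057237-136057266, and Upk1a is chr7:30612848-30612984 on the minus strand followed by 30 bases from chr7:30612749-30612778.
Upk3b: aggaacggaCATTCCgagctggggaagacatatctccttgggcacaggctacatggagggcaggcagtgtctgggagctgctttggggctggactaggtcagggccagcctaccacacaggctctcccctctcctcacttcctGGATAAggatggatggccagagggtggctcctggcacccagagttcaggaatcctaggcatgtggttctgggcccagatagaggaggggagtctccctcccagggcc
Upk3bl: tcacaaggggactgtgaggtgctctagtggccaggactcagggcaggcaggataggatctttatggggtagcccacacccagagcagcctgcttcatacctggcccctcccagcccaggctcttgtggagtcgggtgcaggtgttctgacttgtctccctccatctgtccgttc
Upk3bl, 30 bases: cctcagcctctgaacctgtccAACCAGTTt
Upk1a: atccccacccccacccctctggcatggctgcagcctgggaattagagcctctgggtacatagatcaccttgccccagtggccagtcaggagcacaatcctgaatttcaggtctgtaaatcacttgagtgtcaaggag
Upk1a, 30 bases: ggggtttgggcaTATATAgggagctgctgt

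In the Upk3b window the search matched GGATAA, and GGAATG on the opposite strand, where it reads CATTCC. The short Upk3bl stretch matched AACCNGTT, the core that grainyhead factors such as Grhl3 recognise, and the short Upk1a stretch matched TATATA. The search also covered the TATA box TATAAA, the GC box GGGCGG, the AP-1 letters TGANTCA, the GATA letters AGATAA, the CCAAT box CCAATC and the palindromic estrogen response element, which had no match in these windows, and no matches overlapped. RefSeq and GENCODE place the starts of Upk1a and Upk3bl differently. Of the Upk1a window 113 bases, the short stretch among them, lie in the GENCODE transcript. The Upk3bl window begins 2525 bases inside the GENCODE gene, and its last 76 bases, the short stretch among them, lie in the first exon of 1 GENCODE transcript. Of 32851 RefSeq promoters of the same length searched on both strands, 6.34% held GGATAA, 12.6% held GGAATG, 1.79% held AACCNGTT and 5.25% held TATATA. The matches describe the letters only.

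The single-cell table held 32387 CO cells and 16312 DES cells, with totals of 353460067 and 288919190 UMIs (unique molecular identifiers, each standing for 1 captured RNA molecule). The authors had assigned a cell type to 12253 CO and 9701 DES cells, with medians of 10775 and 17035 UMIs per cell. The 2 libraries shared 180 cell barcodes, of which 32 were in cells with a type and 3 in epithelial cells. The authors' labels fitted their markers: in both libraries 9 of 9 mesothelial markers and 0 of 10 epithelial markers were higher in mesothelial than in epithelial cells. Levels below are UMIs of a gene per 1000000 UMIs of all genes in the cells summed (CPM), with exact Poisson 95% intervals that cover counting error only.

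Between these cell types, Upk1b and Upk3b were higher in mesothelial cells of both libraries, Upk1a, Upk2 and Upk3bl were higher in epithelial cells, and Upk3a had no UMI in either. Among genes of at least 10 CPM, 2 of the 3 members that reached this level in the CO library were at least 2-fold higher in mesothelial cells, against 23.0% of all such genes, and 1 was at least 2-fold higher in epithelial cells, against 14.5%. In the DES library 4 members reached 10 CPM, with 2 higher in mesothelial cells (20.7% of all genes) and 2 higher in epithelial cells (13.6%). These levels were used to pick the genes, so nothing is read from the shares.

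Upk3b, which pairs with Upk1b, reached 1005 CPM in the 6866 CO mesothelial cells and 900.0 CPM in the 3837 DES mesothelial cells. It stood at 19.8 CPM in the 2583 CO epithelial cells and 11.9 CPM in the 5255 DES epithelial cells. The mesothelial level was thus 50.9-fold the epithelial one in CO and 75.3-fold in DES. Mesothelial cells held 96.7% of the Upk3b UMIs of typed CO cells and 96.3% of those of typed DES cells.

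Upk1b, the tetraspanin partner of Upk3b, followed the same split at 325 CPM in CO and 241 CPM in DES mesothelial cells. Its epithelial levels were 5.63 CPM in CO and 1.62 CPM in DES. Mesothelial cells held 96.8% of its UMIs in typed CO cells and 97.9% of those in typed DES cells.

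Between the libraries the mesothelial levels of both genes were lower in DES, by less than 2-fold. The DES to CO ratio in mesothelial cells was 0.895 (0.886 to 0.905) for Upk3b and 0.744 (0.730 to 0.759) for Upk1b, at ranks 5978 and 7998 from the highest of 8814 genes. Among these genes 1.89% were at least 2-fold higher in DES and 2.33% at least 2-fold lower.

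Upk1a, the tetraspanin that pairs with Upk2, showed the widest gap between the libraries. Its epithelial level was 1.10 CPM in CO, from 87 UMIs, and 66.0 CPM in DES, from 11621 UMIs. That is a ratio of 59.7 (48.4 to 74.7), the 12th highest of the 8445 genes that reached 10 CPM in epithelial cells of either library. In mesothelial cells Upk1a stood at 0.253 CPM in CO and 2.45 CPM in DES, and 98.3% of its UMIs in typed DES cells were epithelial.

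Upk2, the partner of Upk1a, was measured at low counts and moved the same way. It rested on 50 epithelial UMIs in CO (0.635 CPM) and 606 in DES (3.44 CPM), a ratio of 5.42 (4.06 to 7.39). Mesothelial cells held 2 Upk2 UMIs in CO and 15 in DES.

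Upk3bl was present in the epithelium of both libraries, at 27.7 CPM in CO and 96.1 CPM in DES. The ratio was 3.47 (3.32 to 3.63). Mesothelial levels were 1.53 CPM in CO and 2.43 CPM in DES, against 1005 and 900.0 CPM for its chromosomal neighbour Upk3b in the same cells.

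Of the 3 members that reached 10 CPM in epithelial cells, Upk1a and Upk3bl were at least 2-fold higher in DES, against 7.06% of the 8445 genes, and none was at least 2-fold lower, against 7.21%. Upk3b, the third, had a ratio of 0.605 (0.566 to 0.646). With 1 library per condition these ratios have no replicate check, and they compare the libraries rather than the conditions.

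Upk3a, the other partner of Upk1b and a classic umbrella cell gene, had 0 UMIs in the epithelial and the mesothelial cells of both libraries. A count of 0 allows up to 0.0381 CPM in CO epithelial and 0.0170 CPM in DES epithelial cells, taking 3 counts as the limit. The CO library held 19 Upk3a UMIs in all. Of these, 11 were in 7 of the 423 lymphocytes, and the cell with the most carried 3 beside 16 UMIs of Cd79a, a B cell gene. That cell also held 5 UMIs of Upk1b and 24327 UMIs in all, against a median of 4033 UMIs in CO lymphocytes. The DES library held 1 Upk3a UMI.

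**Figure D1:**
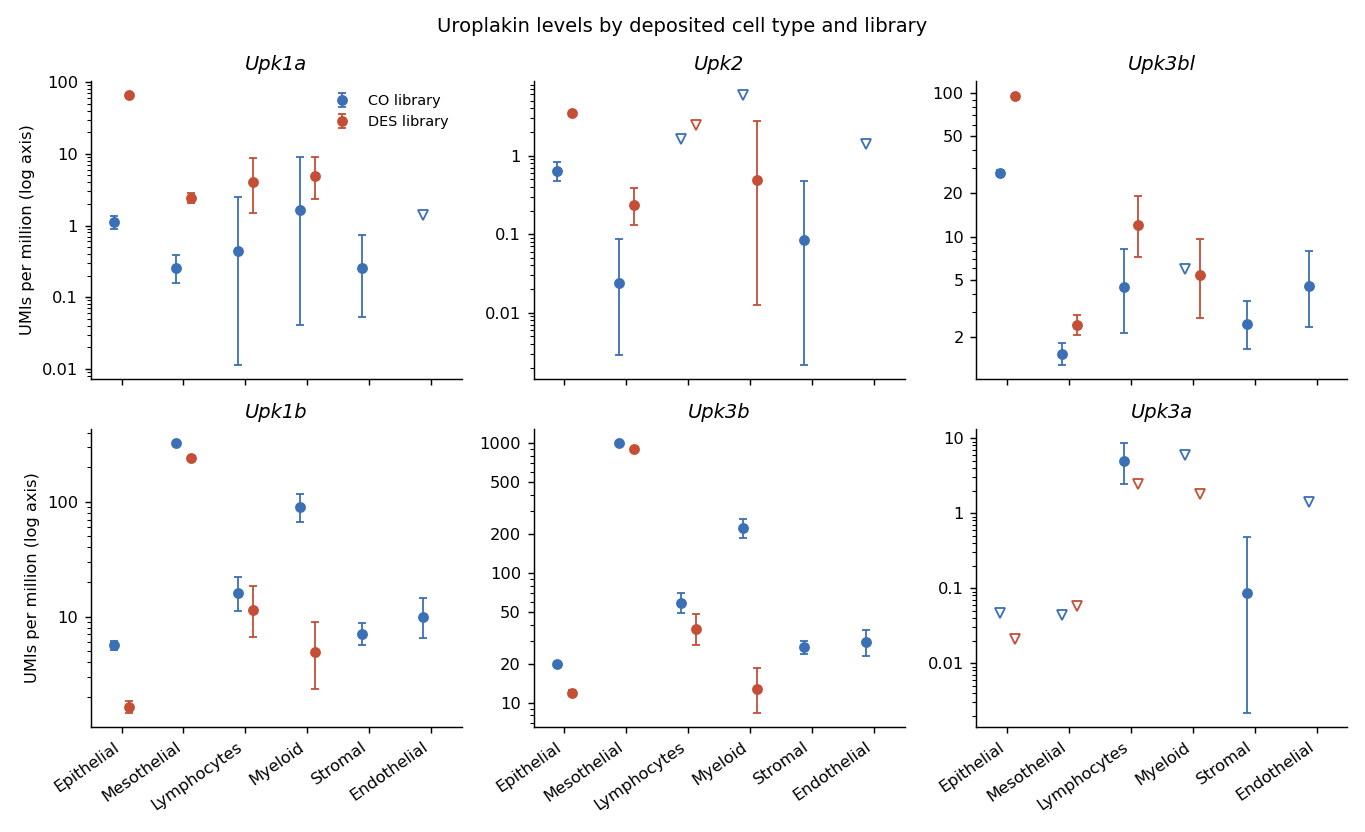
Level of each uroplakin in the deposited cell types of the CO and DES libraries, in CPM on a log axis, with exact Poisson 95% intervals as bars and a downward triangle at the upper bound where the count was 0. Among the cell types shown, Upk3b and Upk1b peak in mesothelial cells of both libraries, with Upk1b at 325 CPM in CO, and Upk1a is 1.10 CPM in CO and 66.0 CPM in DES epithelial cells.

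Free RNA in the droplets gives every cell some UMIs of abundant genes, so the share of cells with a UMI was compared with lymphocytes after each cell was thinned to 3000 UMIs. Cells under that depth were left out, which kept 2562 of 2583 CO and 5201 of 5255 DES epithelial cells. Before thinning the median depth was 23458 UMIs in CO and 21900 UMIs in DES epithelial cells, against 4033 and 5599 UMIs in lymphocytes.

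Upk3b was found in 91.5% of mesothelial cells in each library. In epithelial cells it was found in 5.23% of CO and 4.11% of DES cells, below the 11.9% and 8.45% of lymphocytes. For Upk1b the epithelial shares of 1.25% and 0.615% also lay below the lymphocyte shares of 5.16% and 2.82%, against 55.4% and 47.8% in mesothelial cells. By these thinned shares, epithelial Upk3b and Upk1b did not stand above lymphocytes. Without thinning the CO epithelial and lymphocyte shares were 38.1% and 19.1% for Upk3b and 14.0% and 7.09% for Upk1b. For Upk1b in DES they were 5.10% and 5.86%. Epithelial cells were thinned from a greater depth, so free RNA can be a smaller part of their UMIs. The shares therefore cannot decide whether epithelial cells express either gene, and no expression is read from them.

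Upk1a was found in 12.2% of DES epithelial cells (637 of 5201, exact binomial 95% interval 11.4% to 13.2%) and in 0.585% of CO epithelial cells (15 of 2562). The DES lymphocyte share was 1.88% and the DES mesothelial share 0.899%. In CO, 3 of 6718 mesothelial cells held it (0.0447%, 0.00921% to 0.130%), below the epithelial interval of 0.328% to 0.964%. None of 310 CO lymphocytes held it, but with an exact upper bound of 1.18% they were too few to set a background for this share. Without thinning the epithelial shares were 35.3% in DES and 3.14% in CO.

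Upk3bl was found in 21.8% of DES and 8.67% of CO epithelial cells after thinning, above the lymphocyte shares of 2.35% and 1.94%. Upk2 was found in 1.02% of DES and 0.234% of CO epithelial cells, with exact intervals of 0.764% to 1.33% and 0.0860% to 0.509%. Mesothelial cells held it in 3 of 3782 DES cells (0.0793%, 0.0164% to 0.232%) and 1 of 6718 CO cells (0.0149%, up to 0.0829%), below the epithelial interval of the same library. No lymphocyte held it, which at 213 DES and 310 CO cells allows shares up to exact bounds of 1.72% and 1.18%, above the epithelial shares. Each of the 3 epithelial members was thus found in a larger share of DES than of CO epithelial cells at matched depth.

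The epithelial members were spread unevenly over the 16 clusters, 4608 cells in all, into which the authors had divided the DES epithelium after taking out its basal cells by their Krt14 and Trp63 counts. Upk1a ranged from 3.41 CPM in cluster 13 to 421 CPM in cluster 5. Clusters 1 and 0 followed at 110 and 103 CPM, with cluster 10 just below them, and the other 12 lay at or below 70.6 CPM. Cluster 5, with 295 cells, gave 32.1% of the epithelial Upk1a UMIs from 5.04% of all epithelial UMIs.

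At 3000 UMIs per cell 53.1% of cluster 5 cells and 24.3% of cluster 1 cells held Upk1a. Over all DES epithelial cells, 213 cells (4.05%) held 50% of the Upk1a UMIs, and the cell with the most held 95. No CO epithelial cluster rose above 2.73 CPM.

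Upk2 was also highest in cluster 5, at 16.9 CPM, followed by cluster 12 at 11.1 CPM and cluster 10 at 6.12 CPM. Over the 16 clusters the log2 levels of Upk1a and Upk2 had a Pearson r of 0.746, given as a description, since the clusters share 1 library. In cells thinned to the same depth, Upk2 was found in 2.20% (1.21% to 3.66%) of the DES epithelial cells with Upk1a and in 0.855% (0.608% to 1.17%) of those without. Such a gap was not limited to the epithelial members, as Upk3b, whose epithelial share lay below that of lymphocytes, was found in 7.85% (5.88% to 10.2%) of the cells with Upk1a and in 3.59% (3.07% to 4.17%) of those without. In CO only 15 epithelial cells held Upk1a at this depth, too few for such a comparison.

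Upk3bl had a different order. It was highest in clusters 12 and 1, at 313 and 264 CPM, with cluster 5 at 136 CPM and cluster 6 at 90.7 CPM, and lowest in cluster 15 at 18.4 CPM. Cluster 0, high in Upk1a, had 33.6 CPM of Upk3bl. The correlation of Upk1a with Upk3bl over the clusters was 0.455, yet within cells Upk3bl was found in 36.9% (33.1% to 40.8%) of those with Upk1a and 19.7% (18.6% to 20.9%) of those without.

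Krt5, a keratin of the basal cells of urothelium and other stratified epithelia, stood beside Upk1a in these clusters. It was 645 CPM in cluster 5, 355 CPM in cluster 12 and 330 CPM in cluster 14, and over the 16 clusters its correlation with Upk1a was 0.815. Cells high in both the basal genes Krt14 and Trp63 had been removed before these clusters were made.

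The 483 cells in which Krt14 and Trp63 each exceeded 1 UMI were taken as basal, a rule on counts that leaves out shallow cells. They had less Upk1a than the other DES epithelial cells, 29.5 against 68.1 CPM, and more Upk3bl, 171 against 91.6 CPM. After thinning, 2.48% of basal and 13.2% of other cells held Upk1a, while Upk3bl was held by 39.8% of basal cells (192 of 483) and by 942 of 4718 other cells. Upk2 was 1.82 CPM in basal and 3.54 CPM in other cells.

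In the CO epithelium Upk3bl ranged over 15 clusters from 5.58 CPM in cluster 11 to 74.6 CPM in cluster 8. Clusters 8, 3 and 14 lay at 74.6, 68.8 and 54.0 CPM and the others at or below 31.2 CPM. The gland markers summed to 1569, 1343 and 1308 CPM in clusters 8, 3 and 14, which the authors took as developing gland, with cluster 14 as its progenitors. They summed to 70045 CPM in cluster 13, taken as mature gland, which had 6.74 CPM of Upk3bl. In the remaining clusters they summed to 344 CPM or less.

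The genes whose levels followed each member most closely were sought over 42 groups of cells among 12860 genes, by Pearson r of log2(CPM + 1). For Upk1a they were Krt5 (0.93), Zfp750 (0.919), Crh (0.91), Grhl3 (0.877) and Lypd8 (0.875). Zfp750 and Grhl3 are known from differentiating stratified epithelia, and Krt5 from their basal cells. For Upk2 they were Zfp750 (0.888), Olfr890 (0.873), Grhl3 (0.862), Upk1a (0.858) and Pla2g2c (0.857), so Zfp750 and Grhl3 appeared in both sets of 5.

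For Upk1b the closest genes were Lrrn4 (0.965), Gpm6a (0.964), Nrxn2 (0.962), Upk3b (0.96) and Tmem151a (0.959). For Upk3b they were Lrrn4 (0.966), Trdn (0.964), Upk1b (0.96), Bnc1 (0.959) and Lgals2 (0.958). Lrrn4, Gpm6a and Bnc1 are mesothelial markers. For Upk3bl they were RP23-52A21.1 (0.901), Wfdc2 (0.878), Serpina1c (0.877), Porcn (0.862) and Psmd3 (0.86), and Wfdc2 is a secreted epithelial protein. These groups share 2 libraries, so no p is given.

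The other genes of the urothelial programme were taken from a list of 16 genes of urothelial differentiation and uroplakin traffic, of which 9 reached 10 CPM in epithelial cells. Of these, 1 was at least 2-fold higher and 4 at least 2-fold lower in DES, beside 7.06% and 7.21% of all genes. The higher one was Krt5, from 0.305 to 178 CPM. That DES level includes the basal cells. Over the DES clusters made without them Krt5 ranged from 5.51 CPM in cluster 8 to 645 CPM in cluster 5, and the part of basal cells in the rise was not tested. Krt20 (31.1 to 0.0227 CPM), an umbrella cell keratin, Pparg (10.8 to 0.409 CPM), a nuclear receptor of urothelial differentiation, Krt7 (996 to 354 CPM), a simple epithelial keratin, and Cldn4 (203 to 66.5 CPM), a tight junction claudin, were the lower ones. The list's median DES to CO ratio was 0.677, and 1.04 over all genes. The other tetraspanins, 15 listed and 10 at 10 CPM, had 1 gene at least 2-fold higher, Tspan3 (17.4 to 35.1 CPM), none lower, beside the same shares of all genes, and a median of 0.983.

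In mesothelial cells, where Upk1b and Upk3b lie, 5 urothelial genes reached 10 CPM. Of them Elf3 (42.5 to 17.2 CPM), an epithelial transcription factor, and Cldn4 (15.6 to 3.03 CPM) were at least 2-fold lower, beside 2.33% of all genes, and the median ratio was 0.651. The epithelial markers together stood at 1285 CPM in CO and 709 CPM in DES mesothelial cells, and at 1393 and 843 CPM in lymphocytes, so free epithelial RNA moved the same way and its part in these ratios was not tested. Of 13 tetraspanins at that level, Tspan1 alone was at least 2-fold lower, with a median of 1.01, beside 0.980 over all genes.

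To set epithelial Upk3b against free mesothelial RNA, its UMIs were divided by those of Lrrn4, a mesothelial gene with a like pattern. The ratio was 2.29 in CO mesothelial and 2.55 in DES mesothelial cells. In lymphocytes it was 3.47 (2.41 to 5.12) in CO and 3.93 (2.16 to 7.65) in DES. CO epithelial cells lay among these at 3.90 (3.49 to 4.37). DES epithelial cells stood at 6.88 (6.10 to 7.78), above the mesothelial ratio but overlapping the interval of DES lymphocytes, which rests on 14 Lrrn4 UMIs. Myeloid cells stood at 2.11 (1.56 to 2.88) in CO and 1.73 (0.885 to 3.52) in DES, below the epithelial interval of the same library. The DES myeloid cells that the authors typed as Lyz2-high stood at 3.31 (1.75 to 6.70), overlapping it. CO cells typed as Ctla2a stood at 5.32 (3.35 to 8.81) and CO endothelial cells at 4.05 (2.43 to 7.09), both overlapping the CO epithelial interval.

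Within the DES epithelium the ratio was highest in clusters 12, at 13.2 (6.49 to 31.5), and 1, at 10.6 (7.46 to 15.6), followed by cluster 6 at 9.62 (6.13 to 15.9) and cluster 5 at 8.50 (5.20 to 14.7), with intervals that overlapped. Cluster 15 had no Lrrn4 UMI. Over the clusters the log2 levels of Upk3b had an r of 0.866 with Upk3bl and 0.355 with Lrrn4. Divided by Msln, another mesothelial gene, Upk3b stood at 0.941 in DES mesothelial cells, 0.833 (0.572 to 1.21) in DES lymphocytes and 1.66 (1.55 to 1.78) in DES epithelial cells. In CO it stood at 1.52 in mesothelial and 1.39 in epithelial cells. Msln and Lrrn4 can have epithelial RNA of their own, and the source of the epithelial Upk3b UMIs was not tested.

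**Figure D2:**
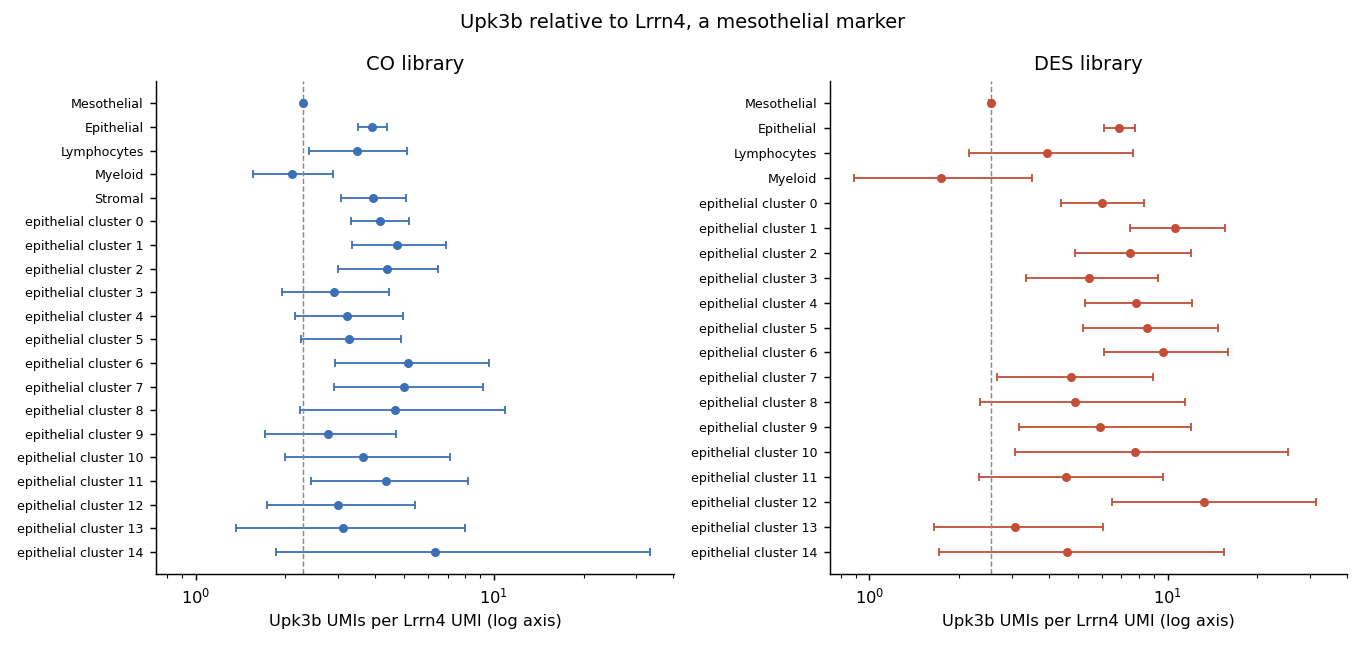
UMIs of Upk3b per UMI of Lrrn4 by cell group, on a log axis with exact 95% intervals. The dashed line is the mesothelial ratio of the same library. CO Ctla2a, CO endothelial and DES Lyz2-high myeloid cells are not drawn. CO epithelial cells lie at 3.90 near the lymphocytes at 3.47, and DES epithelial cells lie at 6.88, with cluster 1 at 10.6.

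The 4 sections held 1433, 1834, 1575 and 1357 spots in CO A, CO B, DES A and DES B, with 12506177, 11032957, 9117099 and 9880021 UMIs. A lower level in a spot can come from fewer cells of a type or from less RNA per cell, which cannot be told apart.

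Upk1a stood at 0.800 and 0.906 CPM in the CO sections and at 193 and 207 CPM in the DES sections. The lower DES section was 213 times the higher CO section, and the ratio of the means was 234. Upk2 stood at 0.320 and 0.0906 CPM in CO, from 4 and 1 UMIs, and at 15.6 and 16.9 CPM in DES.

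Upk3b was 2.64 and 2.08 CPM in CO and 18.8 and 23.1 CPM in DES, a ratio of means of 8.86, whereas the single-cell libraries gave 0.605 in epithelial and 0.895 in mesothelial cells. Upk1b was 0.560 and 0.997 CPM in CO against 2.63 and 5.16 CPM in DES.

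The 9 mesothelial markers did not move together over the same sections. Their summed level was 83.2 and 124 CPM in CO A and CO B and 81.7 and 95.3 CPM in DES A and DES B. Both DES sections lay above both CO sections for Bnc1, Gpm6a, Msln and Muc16 and below for Cldn15, Rspo1 and Wt1, with Lrrn4 and Nkain4 overlapping. Bnc1, a transcription factor also known from stratified epithelia, gave 2, 13, 141 and 111 UMIs and Muc16, a large mucin also found on epithelia, gave 5, 7, 82 and 309 UMIs. Cldn15 gave 236, 183, 41 and 43 UMIs, Msln gave 25, 31, 28 and 44, and Lrrn4 gave 8, 2, 2 and 9. Thus Bnc1 and Muc16 were higher in DES beside Upk3b, and the part of these markers in the Upk3b levels was not tested.

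Upk3bl did not separate the conditions, because the CO sections differed from each other. CO A had 22.3 CPM and CO B had 121 CPM, and the DES sections lay between them at 116 and 113 CPM. Upk3a was seen at 0 and 2 UMIs in CO and at 5 UMIs in each DES section.

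In all, 5 of the 6 members had both DES sections above both CO sections, against 41.6% of the 15971 genes with at least 10 UMIs, and 0 had both below, against 18.4%. The section levels were used to pick the genes, so this count is a description. The levels of all 6 members were higher in both DES sections than in the DES epithelial cells, with 193 and 207 CPM beside 66.0 CPM for Upk1a and 116 and 113 CPM beside 96.1 CPM for Upk3bl, on different assays from different mice.

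**Figure D3:**
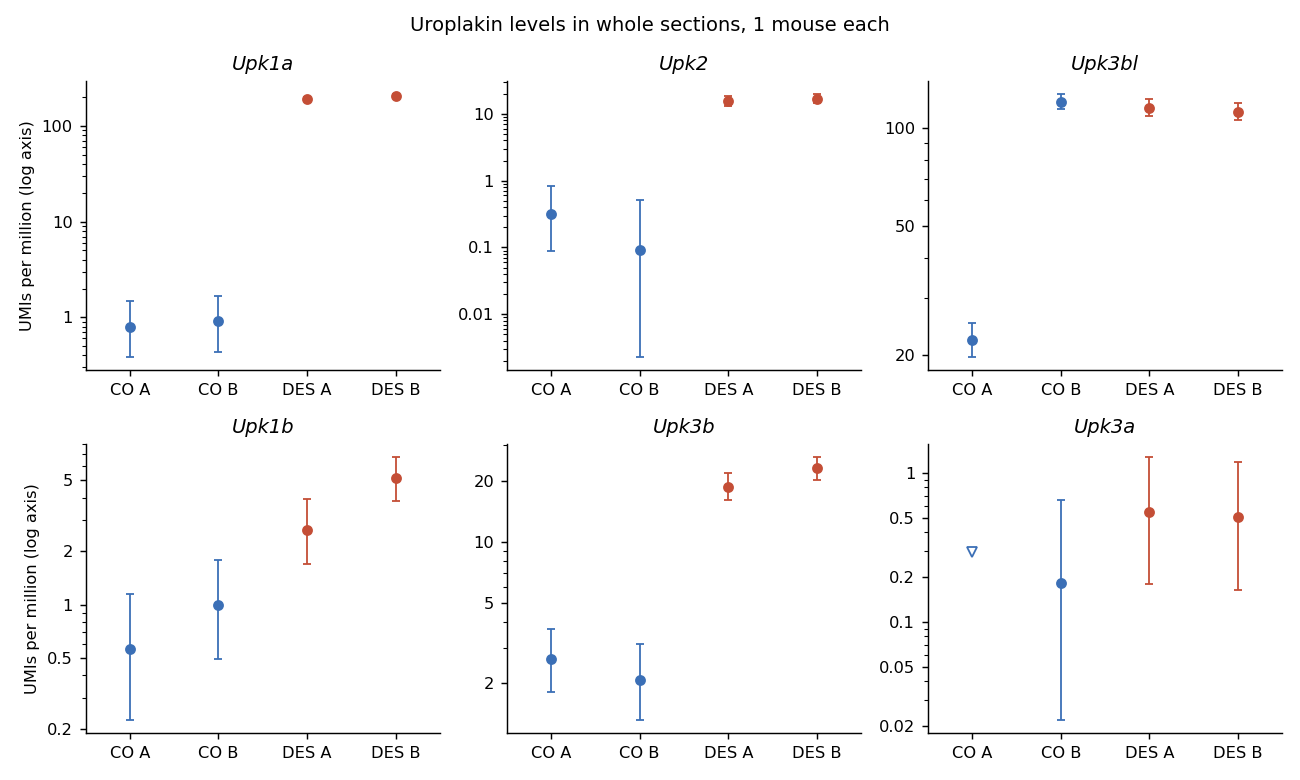
Level of each uroplakin in the 4 sections, in CPM on a log axis, 1 point per section with its exact Poisson 95% interval. Upk1a, Upk2, Upk3b and Upk1b are higher in both DES sections, while CO B, at 121 CPM, is level with the DES sections for Upk3bl.

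Position within a section was not used to pick the genes, but their epithelial and mesothelial levels were. The spot groups below are ranked by markers of those cell types, so ratios that follow a member's known cell type are descriptions. In each section the 15% of spots with the largest share of 7 epithelial markers (Epcam, Cdh1, Cldn3, Cldn4, Cldn7, Esrp1, Elf3) were called epithelium-rich. Of the rest, the 15% with the largest share of 5 mesothelial markers (Lrrn4, Nkain4, Gpm6a, Bnc1, Cldn15) were called mesothelial-list spots. The 12 sums of 3 spot groups in 4 sections were fitted together with edgeR's quasi-likelihood test, with the section as a block. The markers that rank the spots come from the same counts. The mesothelial-list spots were carried mainly by Cldn15 in CO (194 and 147 UMIs) and by Bnc1 in DES (121 and 102 UMIs), and Lrrn4 gave only 8, 2, 2 and 9 UMIs there, so these spots are named for the list and not for the tissue. Of the members 5 passed the filter on low counts and Upk3a did not.

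Upk3bl was higher in epithelium-rich than in other spots. Its levels in epithelium-rich spots were 36.6 and 215 CPM in CO A and CO B and 127 and 123 CPM in DES A and DES B, against 18.5, 89.6, 112 and 109 CPM in the other spots. It was higher in the epithelium-rich spots of each section, with a log2 ratio of 0.65 ± 0.087 (SE). Upk3bl was picked with its epithelial level known, so the ratio is a description and supports no call. Of the 12539 genes tested, 24.7% were called higher and 24.1% lower in these spots, and nothing is read from that for the members.

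The step from other to epithelium-rich spots was smaller in DES than in CO for Upk3bl. The difference in the log2 ratio was -1.10 ± 0.17 (SE). Upk3bl was picked with its epithelial and section levels known, so this difference is also a description and supports no call. The summed epithelial markers that rank the spots also had a smaller ratio of epithelium-rich over other spots in DES. They stood at 4024 and 3139 CPM against 1653 and 905 CPM in CO A and CO B. In DES A and DES B they stood at 4144 and 4375 CPM against 2050 and 2308 CPM. The part of this smaller marker step in the Upk3bl difference was not tested. Of all genes 4.68% were called lower and 5.45% higher in this difference, and nothing is read from that for the members. Without DES A the difference was -1.01 with an adjusted p of 0.0635, and without DES B it was -1.01 with an adjusted p of 0.0682 (both edgeR quasi-likelihood tests with Benjamini-Hochberg adjustment), so the call rests on having both DES sections.

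Upk1a was not called in either respect. In DES A its level was 245 CPM (222 to 270) in epithelium-rich and 192 CPM (181 to 203) in other spots. In DES B it was 259 CPM (236 to 284) against 196 CPM (185 to 207), so the counting intervals overlapped in neither section. In CO these levels lay between 0.660 and 0.759 CPM, with 2 UMIs in the epithelium-rich spots of each section. The log2 ratio of epithelium-rich over other spots, averaged over CO and DES, was 0.11 ± 0.39 (SE, edgeR adjusted p = 0.844). The 7 epithelial markers together stood at 4144 and 4375 CPM in DES epithelium-rich spots and at 2050 and 2308 CPM in the other DES spots. In CO they stood at 4024 and 3139 CPM in epithelium-rich spots and at 1653 and 905 CPM in the others. The other spots of both DES sections thus held more epithelial marker RNA than those of the CO sections.

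Upk2, Upk1b and Upk3b also missed the threshold in epithelium-rich against other spots. Their log2 ratios were 0.83 ± 0.67, -0.25 ± 0.63 and -0.16 ± 0.39 (SE), with edgeR adjusted p-values of 0.322, 0.767 and 0.756. Their differences between DES and CO were -0.81, 1.30 and 0.48 on the log2 scale, and that of Upk1a was 0.39, with edgeR adjusted p-values from 0.568 to 0.803.

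In epithelium-rich spots themselves Upk3b was 0.660 and 0.705 CPM in CO, from 2 UMIs in each section, and 19.6 and 23.9 CPM in DES. The 9 mesothelial markers together stood at 19.2 and 34.2 CPM in the CO and at 49.98 and 78.0 CPM in the DES epithelium-rich spots. Bnc1 (0, 5, 20 and 9 UMIs) and Muc16 (0, 2, 27 and 107 UMIs) were higher in both DES sections there, as was Msln at 0, 0, 1 and 1 UMIs, while Cldn15 (18, 36, 5 and 1 UMIs) was lower. Lrrn4 and Gpm6a gave 0 UMIs in all 4 sections. The part of these markers in the Upk3b levels was not tested. Both DES sections were above both CO sections for 4 of the 5 members with at least 10 UMIs there (Upk1a, Upk1b, Upk2 and Upk3b, but not Upk3bl), against 44.1% of the 13305 such genes, and below for 0, against 13.4%. Upk3a had 0 UMIs there.

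Upk3b had the highest log2 ratio of mesothelial-list over other spots among the members. In CO it stood at 13.4 and 12.4 CPM there, from 21 and 17 UMIs, against 1.26 and 0.586 CPM in other spots. In DES it stood at 17.7 and 32.3 CPM against 18.8 and 20.4 CPM. The CO spots thus separated clearly, whereas in DES A the mesothelial-list spots were not the higher ones.

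Over all sections the log2 ratio of Upk3b was 2.03 ± 0.24 (SE), and 1.81 without DES B. Lrrn4, Gpm6a and Bnc1, which rank these spots, were among the genes closest to Upk3b or Upk1b in the single cells, and Upk3b was picked with its mesothelial level known, so the ratio is a description and supports no call. Of all genes 0.0638% were called higher and 0.016% lower in these spots, and nothing is read from that for the members. The other members tested had log2 ratios of 0.47 (Upk1a), 0.61 (Upk1b), 0.48 (Upk2) and -0.08 (Upk3bl).

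The step of Upk3b was smaller in DES than in CO, by -3.36 ± 0.48 (SE) on the log2 scale. Upk3b was picked with its mesothelial and section levels known, so this difference is also a description and supports no call. Of all genes 0.00798% were called lower and 0.0239% higher in this difference, and nothing is read from that for the members. Without DES A the difference for Upk3b was -3.05, and without DES B it was -3.79. The spots were also carried by different markers, Cldn15 in CO and Bnc1 in DES, and a difference in what the list picked cannot be told apart from one in Upk3b. With 25% of spots in place of 15% it was -3.04 with an edgeR adjusted p of 0.435. For the other members the differences were -1.33 (Upk1a), -1.85 (Upk1b), -1.32 (Upk2) and 0.31 (Upk3bl), each with an edgeR adjusted p of 1.

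Spots were also taken as those outside the epithelium-rich ones with at least 1 UMI of Lrrn4, Nkain4, Gpm6a or Msln, a choice made after seeing the data. These were 34, 29, 44 and 53 spots in CO A, CO B, DES A and DES B. Lrrn4 and Gpm6a were among the genes closest to Upk1b or Upk3b in the single cells, so these values are a description and support no call. On the log2 scale against other spots, Upk3b stood at 4.48, Upk1b at 3.09 and Upk3bl at -1.50, and the difference between DES and CO for Upk3b was -4.88.

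**Figure D4:**
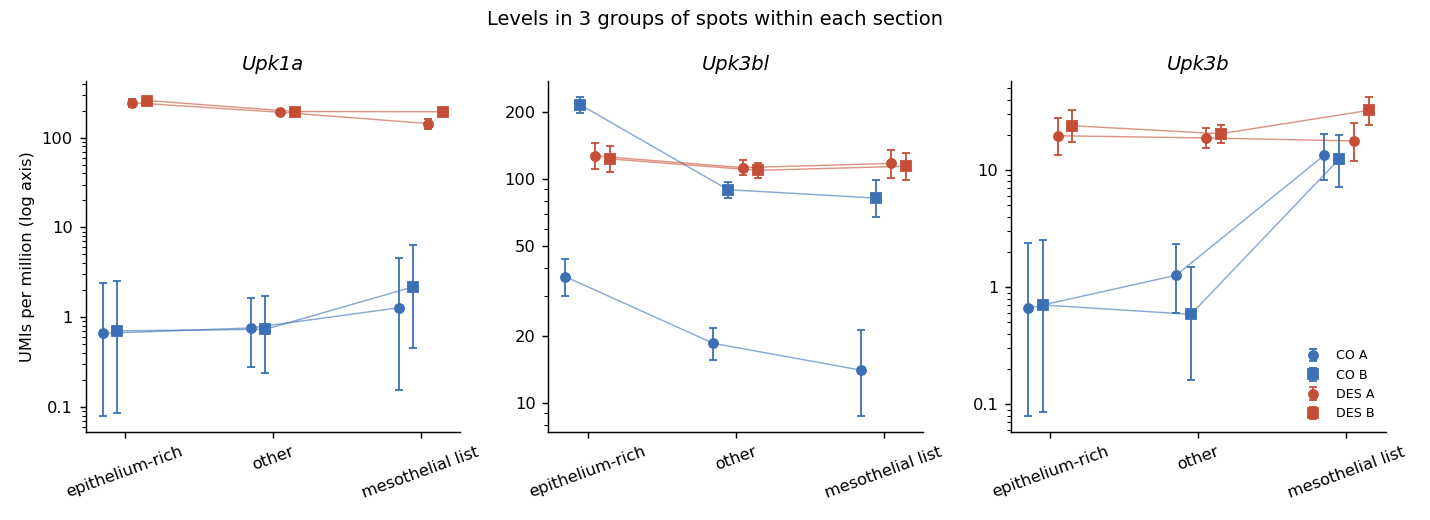
Levels of Upk1a, Upk3bl and Upk3b in epithelium-rich, mesothelial-list and other spots of the 4 sections, in CPM on a log axis with exact Poisson 95% intervals. In CO A and CO B, Upk3b is 13.4 and 12.4 CPM in mesothelial-list spots and 1.26 and 0.586 CPM in other spots, while in DES A and DES B it lies between 17.7 and 23.9 CPM in every group except the DES B mesothelial-list spots at 32.3 CPM.

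Of the other genes of the pathway, 13 of the 16 urothelial genes could be tested, with 8 higher and 1 lower in epithelium-rich spots, where 24.7% of all genes were higher and 24.1% lower, and a median log2 ratio of 0.866, against 0.0562 over all genes. Elf3 and Cldn4 also rank the spots. In the difference between DES and CO, 4 were lower and 0 higher, beside 4.68% and 5.45% of all genes, namely Elf3 (-0.89), Mal (-0.73), Krt7 (-0.90) and Rab27b (-1.06), the last a small GTPase of uroplakin vesicle traffic. The list median was -0.458, beside -0.0884 over all genes.

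The 15 other tetraspanins were all tested, with 3 higher and 8 lower in epithelium-rich spots, beside the same 24.7% and 24.1% of all genes, and a median of -0.631. In the difference between DES and CO, Cd53 (1.70), Cd151 (0.74), Cd81 (0.81), Tspan3 (0.85) and Tspan13 (3.32) were higher and Tspan1 (-0.64) was lower, beside 5.45% and 4.68% of all genes, with a median of 0.74. Neither list had a gene called in mesothelial-list spots or in their difference between DES and CO, where edgeR called 10 and 4 of all genes and 516 and 592 had an unadjusted p under 0.05. Most abundant in the single cells were Cd81, Cd9, Cd63 and Tspan8 among the tetraspanins, with highest levels of 2043, 1017, 846 and 754 CPM, and Krt7, Elf3, Cldn4 and Krt5 among the urothelial genes, at 996, 608, 203 and 178 CPM.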

How the data were processed

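UMI counts per gene came from the tables deposited by the authors: the single-cell counts (Cell Ranger 3.0.1, mm10, with the authors' filters, cell types and epithelial clusters) and the counts of 4 sections (Space Ranger 1.2.2, spots over tissue), from Chromium 3′ v3 and Visium libraries. How doublets and replicates were treated follows the authors, who removed doublets with scran, and no doublet caller was run here. Counts were summed over cells or spots and divided by their total. The 6 members are named in every comparison. For each with at least 500 UMIs, the 5 genes of highest Pearson r are named, and from the 2 gene lists the 4 most abundant in epithelial or mesothelial cells and those called in a difference between DES and CO. Members and lists were chosen with earlier results of these data known. Spot groups were tested with edgeR 4.0.16 (TMM, filterByExpr, quasi-likelihood, Benjamini-Hochberg, threshold 0.05, 4 residual degrees of freedom) in R 4.3.3. DESeq2 1.42.0, size factors, no filter, no block, other spot shares and leaving out each section were alternatives. On simulated counts for epithelium-rich against other spots, with 200 changed genes, the fit called 91.8% of 110 genes changed by 1 and 100.0% of 90 changed by 2 on the log2 scale, and 8 of 11946 unchanged genes. The simulated counts had a fixed spread and the same gene levels in all sections, and no difference between DES and CO was simulated. Replicates are sections from separate mice. Intervals and limits cover counting error only. RefSeq gave promoter sequences for 4 of the 6 members.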

Additional observations from a re-analysis of the deposited data

Results flagged for a closer look

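The log2 ratio of epithelium-rich over other spots for Upk3bl differed between DES and CO by -1.10, which is a description and supports no call. That of mesothelial-list over other spots for Upk3b differed by -3.36, which is also a description and supports no call. The mesothelial-list spots were carried by different markers in CO and DES. CO A and CO B differ in Upk3bl level, and the part of that gap in the first difference was not tested. The summed epithelial markers that rank the spots also had a smaller ratio of epithelium-rich over other spots in DES. The part of that smaller marker ratio in the first difference was not tested either.

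The 6611 DES cells and 20134 CO cells without a deposited cell type entered no comparison of the report, and only the alternative with cells chosen by Epcam and Lrrn4 used some of them. In them Upk1a stood at 73.7 CPM in DES and 0.507 CPM in CO, Upk2 at 3.54 and 0.253 CPM, and Upk3bl at 62.3 and 10.1 CPM. These DES cells had a median of 2178 UMIs, and 437 of them held Upk1a. Of their 3121 Upk1a UMIs, 96.5% were in cells that also held Epcam, and the cell with the most had 186 among 121525 UMIs.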

How the results depend on the processing

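Upk1b and Upk3b remained the 2 members higher in mesothelial than in epithelial cells under each of the 5 alternatives tried on the single cells. With cells chosen by Epcam and Lrrn4, which took in 3500 of 6211 CO and 985 of 5942 DES epithelial cells without a deposited type, the epithelial DES to CO ratios were 89.9 (Upk1a), 0.232 (Upk1b), 0.471 (Upk3b) and 4.05 (Upk3bl), and the mesothelial ratios 0.767 (Upk1b) and 0.95 (Upk3b). Without cells holding both genes, Upk3b stood at 0.683 in epithelial and 0.925 in mesothelial cells, and as a mean over cells the ratios were 0.356 (Upk1b) and 0.650 (Upk3b) in epithelial and 0.780 and 0.923 in mesothelial cells.

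The section was already the block in the spot fits, so pairing CO A with DES A was not used, and deviations of the same letter had r = -0.0123 over 12591 genes. Without the replicate block the epithelium-rich calls fell from 6124 to 2745 and their difference between DES and CO from 1270 to 53, and both mesothelial-list counts, 10 and 4, fell to 0. Upk3bl then had log2 values of 0.68 (edgeR adjusted p = 0.472) and -1.16 (0.835) and Upk3b 2.04 and -3.34 (1.0). Leaving out 1 section gave 3992 to 6602 (3992 without DES A), 5 to 83 (83 without CO A, 5 without DES B), 261 to 3027 and 0 to 58 calls in the same order of comparisons as above, with epithelium-rich spots, mesothelial-list spots and then their differences. The 3027 came without CO A, the 261 without DES B, and 315 without DES A. In the last, 0 came without DES A or DES B, 16 without CO A and 58 without CO B. DESeq2 called 519 in the epithelium-rich difference and 5 in the mesothelial-list spots. Without a filter the mesothelial-list counts were 45 and 28. Taking 10% or 25% of spots gave 306 and 2598 in the epithelium-rich difference, and 25% gave 0 in the mesothelial-list difference, where Upk3b was -3.04 (edgeR adjusted p = 0.435). Spots with Lrrn4, Nkain4, Gpm6a or Msln gave 1091 and 71.

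Among values not called, the sign turned for Upk3b in epithelium-rich spots (0.18 without CO A, 0.028 with 10% and 0.38 with 25% of spots), Upk1a (-0.63 and -0.18) and Upk2 (-1.49 with 10%). In mesothelial-list spots it turned for Upk1b and Upk2 without CO A (-0.51 and -0.093), Upk2 with 10% (-1.68), Upk3bl with 25% (0.088), and Upk1a and Upk2 in the spots with Lrrn4, Nkain4, Gpm6a or Msln (-2.70 and -3.02). In the differences it turned for Upk3b without CO A (-0.21), Upk2 without CO B (0.035) and with 10% (3.44) in epithelium-rich spots, and in mesothelial-list spots for Upk1b without CO A (0.37), Upk2 with 10% (2.84) and Upk1a in the marker-chosen spots (4.39). Leaving out 1 section gave ranges of -0.39 to 0.18 for Upk3b in epithelium-rich spots, of -0.51 to 1.58 for Upk1b and -0.093 to 0.60 for Upk2 in mesothelial-list spots, and in the differences of -3.12 to 0.035 for Upk2, -0.21 to 0.94 for Upk3b and -3.81 to 0.37 for Upk1b. The causes were not tested. Upk1a, Upk2, Upk1b and Upk3b in CO sections rest on 1 to 33 UMIs per section, which limits their ratios. The 2 pooled libraries give no replicate error.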

Other observations

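Within CO B, Upk3bl was not even. The authors' spot cluster 10 of that section, with 17 spots, had 432 CPM (345 to 534) of Upk3bl, and cluster 2, with 339 spots, had 203 CPM (190 to 218). Cluster 10 also held the basal genes Krt5 at 3580 CPM, Krt14 at 2288 CPM and Trp63 at 158 CPM, and 0 UMIs of Upk1a. It gave a small part of the section's Upk3bl, as 93.6% of the UMIs lay outside it and the section without it stood at 115 CPM.

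In DES B, cluster 9, with 47 spots, had 134 CPM (71.5 to 230) of Upk3b from 13 UMIs beside 217 CPM of the mesothelial markers. Upk1a reached 372 CPM (348 to 397) in DES A cluster 2 and 282 CPM (262 to 303) in DES B cluster 1.

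In the single-cell table, the 22 CO cells that the authors typed as Stmn1-hi had 763 CPM of Upk3b and 326 CPM of Upk1b, near the mesothelial levels of 1005 and 325 CPM.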
